A study of Danio rerio with 24 samples.

Results

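Erythroid cells are the red blood cells and their nucleated precursors. They were examined here among single cells of zebrafish WKM (whole kidney marrow), where adult fish make their blood. A cell was a barcode with at least 1500 transcripts, and it was called erythroid where it held at least 3 transcripts of *alas2* (ENSDARG00000038643), the first enzyme of haem synthesis in red cells, and at least 3 of them per 10000 transcripts. The members were thus chosen by their measured *alas2* transcripts, and the level of *alas2* in them describes that choice. This rule found 104 erythroid cells among 1008 cells. The cells came from 3 genotypes of 3 months old fish, which the study's methods give as the strain Tüpfel long fin/Ekkwill: wild-type, fish homozygous for the *ikzf1* allele IT325 and fish homozygous for the *ikzf1* allele fr105. Ikaros, the product of *ikzf1*, binds DNA through zinc fingers and acts mainly in blood cells. The IT325 product ends early through a nonsense mutation and lacks the 2 zinc fingers at its C-terminal end, through which Ikaros proteins bind each other. In fr105 a deletion leaves 1 zinc finger of the DNA-binding domain and removes the fingers that follow it. Each genotype was represented by 8 libraries, 4 of a set labelled P1 and 4 of a set labelled P2. Of the 345 wild-type cells 25 were erythroid, as were 72 of the 359 IT325 cells and 7 of the 304 fr105 cells.

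Red cell precursors divide while they switch on haemoglobin, and each haemoglobin molecule joins alpha and beta globin chains with haem, which is made from glycine and succinyl-CoA in a chain of enzymes that starts with Alas2. Gata1, Tal1 and Klf factors drive these genes, erythropoietin keeps the precursors alive, and band 3 (*slc4a1a*), spectrin and their partners build the membrane skeleton. Fish red cells keep their nucleus, and with maturation haemoglobin takes up a growing part of the messenger RNA.

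The used barcodes of a library held between 103585 and 545086 transcripts, and a library gave 22 to 56 cells. The median number of transcripts in the cells that were not erythroid lay between 3135 and 4259 in wild-type libraries. It lay between 4619 and 7242 in IT325 and between 3131 and 6089 in fr105 libraries. IT325 libraries thus gave more transcripts per such cell than wild-type libraries. Over all erythroid cells the medians were 9312 in wild-type and 8879 in IT325. Whether sampling depth or the mix of cells sets these values was not tested. Carry-over between libraries, read from barcodes that a library did not use, came to 0.289% of the transcripts of the other libraries in the set formed by all wild-type and the IT325 P1 libraries, 0.494% in the IT325 P2 libraries and 0.308% in the fr105 libraries. The 2304 unused barcodes together held 42 *alas2* transcripts in 39 barcodes, with 3 as the highest number. An erythroid cell was expected to hold at most 0.435 carried *alas2* transcripts, 3 of the 104 cells fell under 3 transcripts once this was subtracted, and 22 shared a barcode with an erythroid cell of another library of their set. Cells had been sorted by light scatter with gates drawn for each genotype, and a gate can set the share of small or dense red cells that enters a plate. The labels name no fish, so p-values measure the spread between libraries, which may be technical, and differences between individual fish and between genotypes cannot be told apart.

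The name of the class was checked against other red cell genes. Transcripts of *gata1a* (ENSDARG00000013477), the main red cell transcription factor, were found in 62.5% of erythroid cells and 6.75% of other cells, and those of *slc4a1a* in 95.2% and 29.8%, at median depths of 9029 and 4628 transcripts. Haemoglobin made up a median of 49.4% of the transcripts of an erythroid cell (range 0.475% to 68.4%) and 0.429% of those of another cell. The number of genes was close, with medians of 1482.5 and 1471.5, although erythroid cells held more transcripts. Erythroid cells held a median of 18.5 *alas2* transcripts, and 80 held at least 10. Just inside the limit were 6 cells with 3 *alas2* transcripts, whose median haemoglobin share was 1.66% (range 1.099% to 51.8%). Just outside were 37 cells with 2, with a median of 1.47% (range 0.276% to 39.6%). A further 10 cells had at least 3 *alas2* transcripts but fewer than 3 per 10000. Of the cells that were not erythroid, 10 had a haemoglobin share over 5%, and the highest of these, 39.6%, belonged to a cell of 2773 transcripts with 2 of *alas2*.

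Summed over cells, the marker lists of neutrophils, macrophages, lymphocytes and kidney tubule were lower in erythroid than in other cells. The 12 neutrophil markers held 0.872% of transcripts outside haemoglobin in erythroid cells and 4.36% in other cells, and in 20 of 20 libraries with erythroid cells the other cells were higher. The 11 macrophage markers held 0.0760% and 0.418%, with *mpeg1.1*, *marco* and *c1qc* at 0 in erythroid cells. The 7 B cell markers held 0.0220% and 0.0395%, with *cd79a* at 0. The 10 markers of T cells and innate lymphocytes held 0.0198% and 0.0911%, with 5 at 0, and the 6 kidney tubule markers 0.0318% and 0.0470%. For kidney tubule the direction varied, since erythroid cells were higher in 9 of 20 libraries and in the median cell (0.0209% against 0.0143%). The lists of 9 progenitor and 8 thrombocyte markers were higher. Progenitor markers held 0.0820% and 0.0570%, with only 3, *tal1*, *lmo2* and *cmyb*, higher in erythroid cells. Thrombocyte markers held 0.0490% and 0.0180%, with only 2 higher, *nfe2* and the platelet receptor chain *gp1bb*. Both *tal1* and *nfe2* are also in the list of erythroid transcription factors. An exception to the low neutrophil markers were 5 IT325 cells of 4 libraries, in which these markers reached 3.76% to 15.4% and haemoglobin 1.11% to 2.56%. They held 3 to 5 *alas2* transcripts each, and *gata1a* was found in 1 of them.

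Erythroid and other cells differ by the choice of the cells, so the levels that follow are a description without a test. They are given as transcripts per 10000 transcripts outside haemoglobin, summed over cells. Of haem synthesis 11 genes besides *alas2* were matched, and all 11 were higher in erythroid cells. As a group, without *alas2*, they held 0.292% against 0.0197% of transcripts, a 14.8-fold difference, and erythroid cells were higher in 19 of 20 libraries. The most abundant were *hmbsa* (5.15 against 0.261) and *hmbsb* (4.77 against 0.235), the gene copies of hydroxymethylbilane synthase, followed by *uros* (3.76 against 0.158), *ppox* (3.10 against 0.171) and *urod* (2.98 against 0.173). Ferrochelatase, *fech*, which puts iron into the ring, stood at 1.02 against 0.0605.

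The 10 genes of the red cell membrane and its skeleton differed most among the gene groups outside haemoglobin, with 0.948% against 0.0287% of transcripts, or 33.01-fold, and all 10 were higher. Band 3, *slc4a1a*, which exchanges chloride for bicarbonate, led with 48.9 against 0.984. The ammonium and gas channel *rhag* stood at 10.1 against 0.657, *epb41b* (protein 4.1) at 9.76 against 0.199, and beta spectrin, *sptb*, at 7.22 against 0.238. The water channel *aqp1a.1* reached 3.06 against 0.0445, a ratio of 68.8. The red cell enzyme list also holds *tspo* and *creg1*, which do not encode enzymes. Of its 10 genes 8 were higher, led by the carbonic anhydrase *cahz* (49.6 against 1.06) and the peroxide-removing *prdx2* (19.2 against 2.35). Pyruvate kinase, listed as PKLR, was at 0 in erythroid cells.

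Iron handling was uneven. The ferritin chain *fth1a*, which stores iron, stood at 89.6 against 8.20, the importer *slc11a2* at 2.73 against 0.482, and *ncoa4*, which delivers ferritin for breakdown, at 2.46 against 0.688. The transferrin receptor gene *tfr1b* was lower in erythroid cells (0.244 against 0.541), as was the iron exporter *slc40a1* (0.141 against 0.199). The other transferrin receptor genes looked for, *tfr1a* and *tfr2*, were not matched to an entry. The level of transferrin receptors as a whole is thus not known here. Of the 14 transcription factors 12 were higher. The most abundant was *klfd* (9.87 against 0.347, found in 90.4% of erythroid cells), followed by *tal1* (3.50 against 0.518), *gata1a* (3.36 against 0.238), *nfe2* (2.97 against 0.648) and *foxo3b* (2.15 against 0.528). Of 10 genes around the erythropoietin receptor only the receptor *epor* (3.83 against 0.340) and its kinase *jak2a* (1.67 against 0.359) were higher, while *stat5.1* (0.643 against 1.68) and the feedback inhibitors *socs3a* (0.360 against 1.99) and *socs3b* (0.206 against 1.15) were lower. The 24 genes of cell division held 0.345% against 0.154%, with 23 higher, and the 82 ribosomal protein genes 17.6% against 10.5%, with 81 higher. The 5 genes of haem breakdown and binding held 0.0592% against 0.00404%, with 4 higher, and 7 genes that take part in clearing organelles 0.0755% against 0.0324%, with 6 higher. The 13 respiratory genes of the mitochondrial genome stood close, at 4.40% and 4.24%, and 5 of them were higher.

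The 15 genes with the largest ratio of erythroid to other cells were, besides *alas2*, *aqp1a.1*, *nt5c2l1*, *slc4a1a* and *epb41b*, mostly genes outside the gene lists. The first was *si:ch211-103n10.5*, with 101.2 against 0.900 per 10000, a ratio of 112, found in 96.2% of erythroid cells. Its level was above that of the ferritin gene *fth1a*, but it has only a clone name. The next were *fabp10b*, a fatty acid binding protein (37 against 3 transcripts in all, ratio 89.1, exact 95% counting interval 28.2 to 452), *si:ch73-55i23.1* (ratio 83.5), *rfesd* (81.3), *si:ch211-207c6.2* (78.5), *tmem229b* (71.1), *rell2* (59.6), the apelin receptor gene *aplnrb* (56.9), *CR385063.1* (138.9 against 2.48 per 10000) and *klf17* (53.4). *CR385063.1* was thus the most abundant of the 15, and *rell2* was found in 22.1% of erythroid cells. Several ratios rest on few transcripts in the other cells, so their order is uncertain. The counts were 45 against 4 for *rfesd*, 59 against 6 for *tmem229b*, 33 against 4 for *rell2* and 63 against 8 for *aplnrb*. For *rell2* erythroid cells were higher in 9 of 20 libraries and equal in 10.

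The cells that met the rule ranged from cells with almost no haemoglobin to cells in which haemoglobin was most of the RNA. Haemoglobin shares of 41.7% and 54.1% divide the 104 cells into 3 parts of nearly equal size, and a further limit was set at 5%. Under 5% lay 15 cells, 14 of IT325 and 1 of wild-type, with a median of 7377 transcripts and 1998 genes. The next 20 cells, from 6.81% to 41.4%, were the deepest, with a median of 16105 transcripts and 2253 genes. The 34 cells in the middle (42.3% to 53.9%) had 12066 transcripts and 1560.5 genes, and the 35 cells at the top (54.2% to 68.4%) had 8018 transcripts and 944 genes. Outside haemoglobin the median went from 11896 transcripts in the second of these ranges to 3118 in the last. Of the 15 erythroid cells with at least 20000 transcripts, all had haemoglobin shares between 6.81% and 52.2%. Across the 89 cells with at least 5% haemoglobin, Spearman's rho between haemoglobin share and transcripts was -0.37. Cells of a library share its depth, and haemoglobin is part of the total, so this is given as a description.

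**Figure D1:**
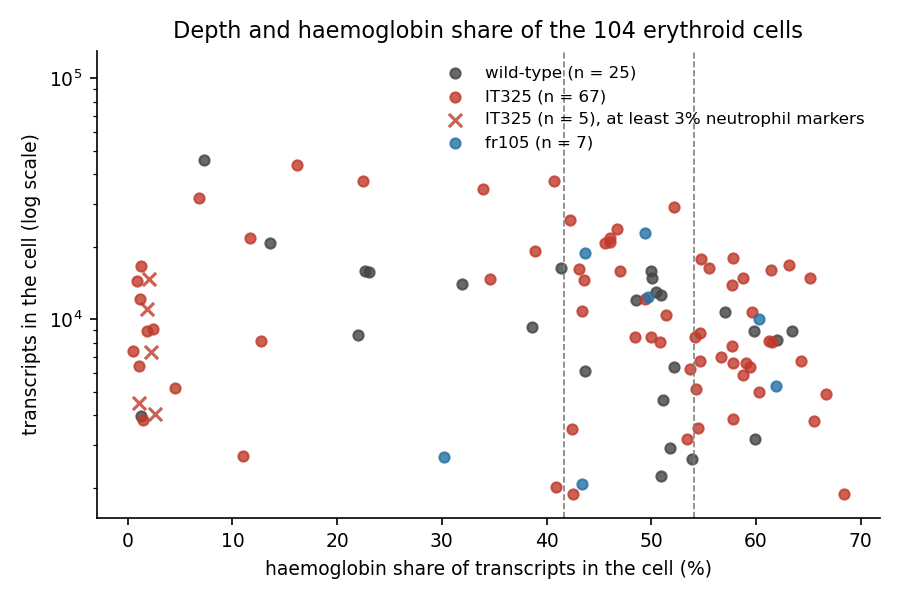
Each point is 1 of the 104 erythroid cells, by its haemoglobin share in percent (horizontal) and its number of transcripts on a log scale (vertical). Dark grey points are wild-type, red points IT325 and blue points fr105, crosses are the 5 IT325 cells with at least 3% neutrophil markers, and dashed lines stand at 41.7% and 54.1%. The deepest cells lie to the left of the upper limit, and a separate group of 15 cells lies under 5%.

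The gene groups followed different courses along these 4 ranges, again as shares of transcripts outside haemoglobin. The mix of genotypes changed too. Wild-type, IT325 and fr105 cells numbered 8, 11 and 1 in the second range, 11, 19 and 4 in the middle and 5, 28 and 2 at the top. What this mix adds to the courses was not tested. Haem synthesis, without *alas2* since that gene chose the cells, went from 0.0463% to 0.347%, 0.375% and 0.263%, and the red cell enzyme list from 0.141% to 0.772%, 1.52% and 2.07%. The cell division list was highest in the ranges between, with 0.0746%, 0.409%, 0.530% and 0.148%. Ribosomal protein genes peaked at 23.2% in the range from 6.81% to 41.4%, against 13.4% below it and 13.3% at the top. Single genes showed the same courses: *pcna*, the sliding clamp of DNA replication, stood at 10.2 per 10000 in the second range and 1.90 at the top, the progenitor factor *cmyb* at 2.49 and 0.159, and *hmbsa* at 7.29 and 2.46. In the other direction *klfd* went from 7.58 to 14.8, *foxo3b* from 1.58 to 3.73, *ncoa4* from 1.42 to 6.75 and the nuclear export receptor *xpo7* from 1.68 to 4.21. The haem enzymes downstream of *alas2* went different ways, since *uros* stood at 3.10 and 5.63 and *urod* at 3.82 and 2.06.

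**Figure D2:**
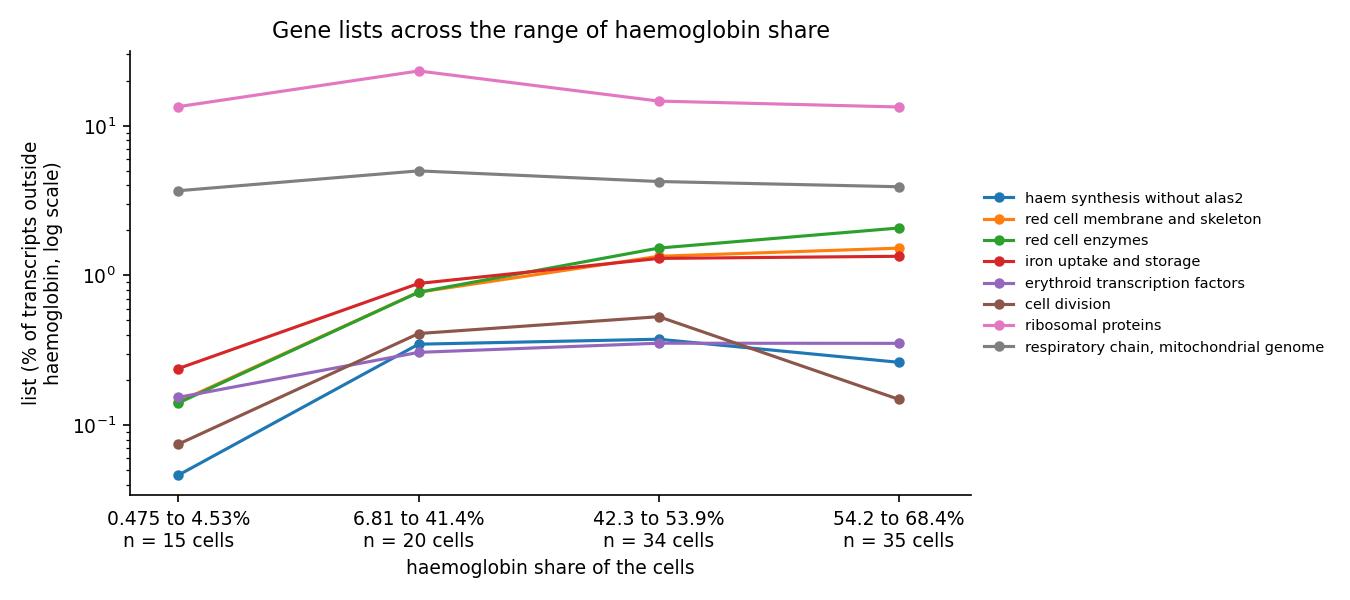
Each line is a gene list, as a percentage of transcripts outside haemoglobin (vertical, log scale) summed over the cells of each of the 4 ranges of haemoglobin share (horizontal, with the number of cells). Haem synthesis is drawn without *alas2*. The membrane and enzyme lists are highest at the top of the range, and the haem synthesis and cell division lists are highest in the middle range, at 0.375% and 0.530%.

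The cells under 5% were a mixed group. The 14 of IT325 had a median haemoglobin share of 1.66%, near the 1.28% of IT325 cells that were not erythroid. Whether they are early red cells or other cells holding some red cell transcripts was not tested. The 5 cells with many neutrophil markers held 0.0123% of their transcripts in the list of erythroid transcription factors, and the other 10 held 0.219%. Among these 10, *gata1a* and *slc4a1a* were each found in 70% of the cells, and among the 5 in 1 cell and in all 5, respectively. Haem synthesis genes other than *alas2* held 0.0542% in the 10 cells and 0.0294% in the 5, between the 0.0197% of the cells that were not erythroid and the 0.347% of the next range.

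Low-haemoglobin cells (shares up to 41.4%) were compared with high-haemoglobin cells (54.2% and above) within libraries, with haemoglobin genes left out. The libraries with cells of both kinds were 7 of IT325 and wild-type replicate 7, with 26 low and 24 high cells, so that this comparison is mostly one of IT325 cells. The 26 low cells include all 14 IT325 cells under 5% haemoglobin, the mixed group above. Whether those are early red cells was not tested, so low against high is not early against late red cells alone. Of 195 genes that passed the filter on low counts, 24 (12.3%) were higher in high-haemoglobin cells and 7 (3.59%) in low-haemoglobin cells at an adjusted p under 0.05 (edgeR, library as a block). The 24 include *alas2* (low minus high -2.52 on the log2 scale). That gene chose the cells, so its call is not an independent result. With DESeq2's poscounts size factors in the same test the split was 4 and 118, since that scaling moves the median of all genes from 0.20 to 1.55 on the log2 scale, so directions here are relative to that median. Under that scaling 11 of the 31 genes called passed in the same direction, and 2 changed sign.

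Genes of the mature red cell were higher in high-haemoglobin cells. The steepest was *CR385063.1*, with 8.75 to 71.5 per 10000 (median 22.3) over libraries in low and 387 to 1055 (median 542) in high cells (log2 difference of low minus high -4.51, SE 0.33, adjusted p 5.1e-08), higher in the high cells of 8 of 8 libraries without overlap. The likewise little-described *si:ch211-250g4.3* had 4.37 to 18.9 (median 12.2) in low and 96.8 to 213 (median 130) in high cells (-3.85, SE 0.29, adjusted p 5.1e-08) and *cahz* had 1.51 to 57.7 (median 16.3) and 61.5 to 213 (median 112) (-3.30, SE 0.43, adjusted p 4.2e-05), each in 8 of 8 libraries and without overlap. These 3 genes passed in all 16 alternatives. All 5 tested membrane genes and 4 of 5 tested genes of the red cell enzyme list passed in this direction, among them *slc4a1a* (-2.24), *sptb* (-1.65), *tspo* (-2.21), *gpx1a* (-1.81) and *creg1* (-2.47), as did the ferritin gene *fth1a* (-1.40). Of these, *gpx1a* passed in 13 of 16 alternatives, and *tspo* and *creg1* in 12 of 15 each. With the poscounts size factors only 4 genes passed in this direction, among them the 3 that passed in all alternatives. Most of the membrane and enzyme genes therefore did not pass under that scaling. Also higher were *hemgn*, a nuclear protein of red cell precursors (-2.10), *kdm6bb*, a histone demethylase (-2.37), and the translation factor *eif5* (-2.37). Without the 5 cells with many neutrophil markers 36 genes were higher in high-haemoglobin and 16 in low-haemoglobin cells. With only the cells of at least 5% haemoglobin these numbers were 22 and 4. Of the 27 genes called above that were tested there, 19 passed in the same direction.

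The genes higher in low-haemoglobin cells included the chaperones *hsp90ab1* (median 30.4 against 11.6, log2 difference 1.43, SE 0.26, adjusted p 0.00098, 8 of 8 libraries) and *hspa8* (22.7 against 9.14, 1.09, SE 0.29, adjusted p 0.013, 7 of 8 libraries), the RNA-binding *serbp1a* (1.29), a subunit of the mitochondrial ATP synthase, *atp5a1* (1.46), and 2 of the 80 tested ribosomal protein genes, RPL29 (1.25) and *rpl5b* (0.85). The median of those 80 was 0.37, against 0.20 for all genes. None of the 10 tested mitochondrial genes of the respiratory chain passed. Of the genes named here, *hsp90ab1* passed in all 16 alternatives, RPL29 in 12 of 15, and *hspa8* and *rpl5b* in 10 of 15 each. The calls of *serbp1a* (8 of 13) and *atp5a1* (5 of 12) were less firm. These alternatives include the poscounts size factors, with which 118 genes were higher in low-haemoglobin cells. The remaining gene, *icn*, an S100 protein, was high in single cells (1 IT325 cell held 45.2% of its IT325 transcripts), and among cells with at least 5% haemoglobin its difference was 0.48 (edgeR adjusted p 0.46). The number of genes called depended on single libraries, with 56 genes without IT325 replicate 9, 47 without IT325 replicate 10 and 19 without IT325 replicate 1.

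The share of erythroid cells was higher in IT325 than in wild-type marrow. It lay between 2.13% and 11.1% of the cells of a library in wild-type (median 6.85%), between 14.3% and 25.0% in IT325 (median 20.8%) and between 0% and 6.67% in fr105 (median 1.22%). Each IT325 library was above each wild-type and fr105 library. The means were 6.97% ± 3.66, 19.99% ± 3.94 and 2.24% ± 2.65 (SD, n = 8). IT325 exceeded wild-type by 13.02 percentage points (two-sided exact permutation test, p = 0.00016, the smallest that 8 against 8 libraries can give, adjusted over 3 comparisons 0.00023). The difference was 12.9 points among P1 and 13.2 among P2 libraries, 10.4 points between the IT325 P1 libraries and all wild-type libraries, which share a carry-over set, and 11.6 points without the cells with many neutrophil markers. Choosing the cells by *gata1a* or by *slc4a1a* in place of *alas2* gave 20.8 and 23.9 points, and cells thinned to an equal 1500 transcripts, with at least 1 of *alas2*, gave 18.6 points. These limits are low, at 1 transcript of *gata1a* and 2 of *slc4a1a*. In cells not called erythroid *slc4a1a* was found in 53.0% of IT325 and 25.6% of wild-type cells, and *alas2* in 41.8% and 13.4%. How much such cells add to these 3 differences was not tested. Counting only erythroid cells with at least 5% haemoglobin gave 9.43 points, the lowest of the values computed.

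The fr105 libraries were 4.74 points below wild-type (exact permutation p = 0.012, adjusted 0.012), and here the sets differed. Erythroid cells made up 2.44% to 6.67% of the fr105 P1 libraries and 0% of all 4 P2 libraries. For each P2 library alone, with 0 of 33 to 44 cells, the exact 95% counting interval reached up to 8.04% to 10.6%. The 4 libraries together allow less, and that limit was not computed. The difference from wild-type was -0.035 points in P1 (exact permutation p = 0.97) and -9.44 points in P2. With *gata1a* or *slc4a1a* as the choosing gene it did not pass (-3.03 points, adjusted exact p 0.23, and -8.43 points, adjusted exact p 0.052). Sort, set and genotype cannot be told apart for fr105 P2.

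**Figure D3:**
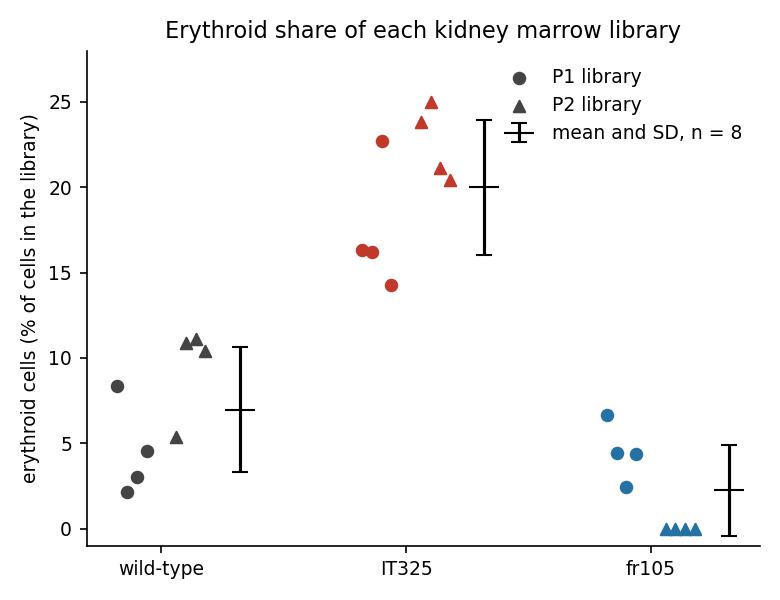
Each symbol is 1 library, by genotype (horizontal) and by the percentage of its cells that were erythroid (vertical), with circles for P1 and triangles for P2 libraries, and bars for the mean and SD of 8 libraries. IT325 libraries lie between 14.3% and 25.0%, above all others, and 4 fr105 libraries lie at 0%.

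Among erythroid cells, depth, haemoglobin share and the share of dividing-cell transcripts were compared between IT325 and wild-type. The median number of transcripts per erythroid cell averaged 9422 ± 3023 over IT325 and 8859 ± 4670 over wild-type libraries (SD, n = 8, exact permutation adjusted p = 0.83), and the median haemoglobin share 47.1% ± 8.84 and 45.9% ± 13.5 (exact permutation adjusted p = 0.83). Cells with less than 10% haemoglobin made up 19.0% ± 14.6 of the erythroid cells of IT325 and 6.67% ± 12.9 of those of wild-type libraries (exact permutation p = 0.11, adjusted 0.46). Without the 5 cells with many neutrophil markers the first of these was 13.6% ± 13.3 and the difference was 6.91 points (exact permutation p = 0.33, adjusted 0.75). The cell division list took 0.270% ± 0.105 and 0.352% ± 0.199 of transcripts outside haemoglobin (exact permutation adjusted p = 0.63). None of the 4 passed, but wild-type libraries with 1 erythroid cell count as much here as those with 5, and the sign of the first and the second value turned with single libraries.

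Genes were compared between the erythroid cells of 8 IT325 libraries (72 cells) and of the 5 wild-type libraries with at least 2 such cells (22 cells). Of 1008 genes tested 32 (3.17%) were higher and 6 (0.595%) lower in IT325, together 3.77%, at an adjusted p under 0.05 (edgeR). With DESeq2's poscounts size factors in edgeR the split was 45 and 1, with the median of all genes moved from 0.02 to 0.47 on the log2 scale, and the directions below are relative to that median. P1 libraries alone, with 1 wild-type library, gave 1 gene, and P2 libraries alone 23.

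The smallest p belonged to *blvrb* (biliverdin reductase B, an enzyme of haem breakdown that red cells are rich in), which was lower in IT325. Its level was 23.6, 20.5, 8.56, 15.6 and 11.83 transcripts per 10000 outside haemoglobin in wild-type replicates 1, 5, 6, 7 and 8, and from 0 to 1.02 in the 8 IT325 libraries, with a median of 0.678. No IT325 library reached the lowest wild-type one. Transcripts of *blvrb* were found in 21 of 22 wild-type and 24 of 72 IT325 erythroid cells. The log2 difference was -4.33 (SE 0.38, edgeR adjusted p 6.1e-09) and it passed in all 24 alternatives that tested the gene with values from -5.27 to -3.62. The 7 fr105 erythroid cells held 5 transcripts, or 1.33 per 10000. In cells that were not erythroid the level was also lower, with medians of 0.0381 in IT325 and 0.397 in wild-type libraries, and the difference between the classes did not pass (interaction -1.56, SE 0.85, edgeR adjusted p 0.54). The other tested genes of haem breakdown and binding did not pass, with *blvra* at -0.40 (adjusted p 0.86) and *hebp2* at 0.08 (edgeR adjusted p 0.98).

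The erythroid cells of the genotypes also differed in which adult globin genes they used. Kidney marrow cells of the adult fish transcribe an alpha and beta pair, *hbaa1* and *hbba1*, and a second pair, *hbaa2* and *hbba2*. Reads that match several loci were discarded in the processing, so that the split between such similar genes is uncertain. The second pair held between 0.7099% and 6.198% of the transcripts of all 4 genes in the erythroid cells of the 8 wild-type libraries (median 2.04%), between 18.7% and 23.8% in the 8 IT325 libraries (median 20.9%) and between 4.4002% and 12.6% in the 4 fr105 libraries with such cells (median 8.36%). Wild-type and IT325 libraries did not overlap. This holds within P1 (1.099% to 6.198% against 18.7% to 21.6%) and within P2 (0.7099% to 4.97% against 20.2% to 23.8%). Cell by cell, 65 of 72 IT325 cells and 0 of 25 wild-type cells had more than 10%, and the highest wild-type cell had 7.52%. This pattern was noticed after the values had been seen, so the ratio is given as a description.

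Both genes of the second pair were higher in IT325 in the fit across all genes. Per 10000 transcripts outside haemoglobin, *hbaa2* stood at 316, 28.5, 43.8, 86.2 and 8.68 in these wild-type libraries and between 470 and 1062 in IT325 (median 712). Its log2 difference was 3.14 (SE 0.55, edgeR adjusted p 0.0011), without overlap. *hbba2* stood at 421, 112, 91.4, 133.9 and 21.9 in the same wild-type libraries and between 407 and 1216 in IT325 (median 753), with a log2 difference of 2.48 (SE 0.47, edgeR adjusted p 0.0017). Here wild-type replicate 1 lay above the lowest IT325 library. The first pair did not pass (*hbaa1* -0.27, SE 0.35, adjusted p 0.82, *hbba1* 0.15, SE 0.37, edgeR adjusted p 0.93). In P1 libraries alone neither passed, with *hbaa2* at 1.66 (adjusted p 0.097) and *hbba2* at 1.33 (edgeR adjusted p 0.24). The embryonic gene *hbae4* was also higher, at 1.69 (SE 0.49, edgeR adjusted p 0.048), with medians of 2.23 and 0.866. Other embryonic genes were too rare to be tested and went different ways. In 72 IT325 and 25 wild-type cells *hbae5* had 34 and 2 transcripts, *hbae1.3* 7 and 8, and *hbae1.2* 0 and 12. *hbae3* and the *hbbe* genes were not matched.

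The share of the second pair was highest in IT325 cells with little haemoglobin. It had a median of 40.0% in the 14 IT325 cells under 5% haemoglobin, 23.4% from 6.81% to 40.9%, 20.1% in the middle range and 17.1% at the top. In wild-type the 1 cell under 5% haemoglobin had 2.03%, the 8 cells of the second range a median of 0.716%, the 11 of the middle range 3.33% and the 5 at the top 1.90%. Among cells with at least 5% haemoglobin in which no globin exceeded 1000 transcripts, far from saturation of the molecular tags, the median was 15.7% in 8 IT325 and 2.43% in 4 wild-type cells. In cells that were not erythroid the second pair held 36.6% to 46.4% in IT325, 2.61% to 14.7% in wild-type and 12.04% to 33.3% in fr105 libraries. Barcodes that were not in use held medians of 29.1% in IT325, 24.58% in wild-type and 27.9% in fr105 libraries, and the part of this background in the erythroid values was not tested.

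**Figure D4:**
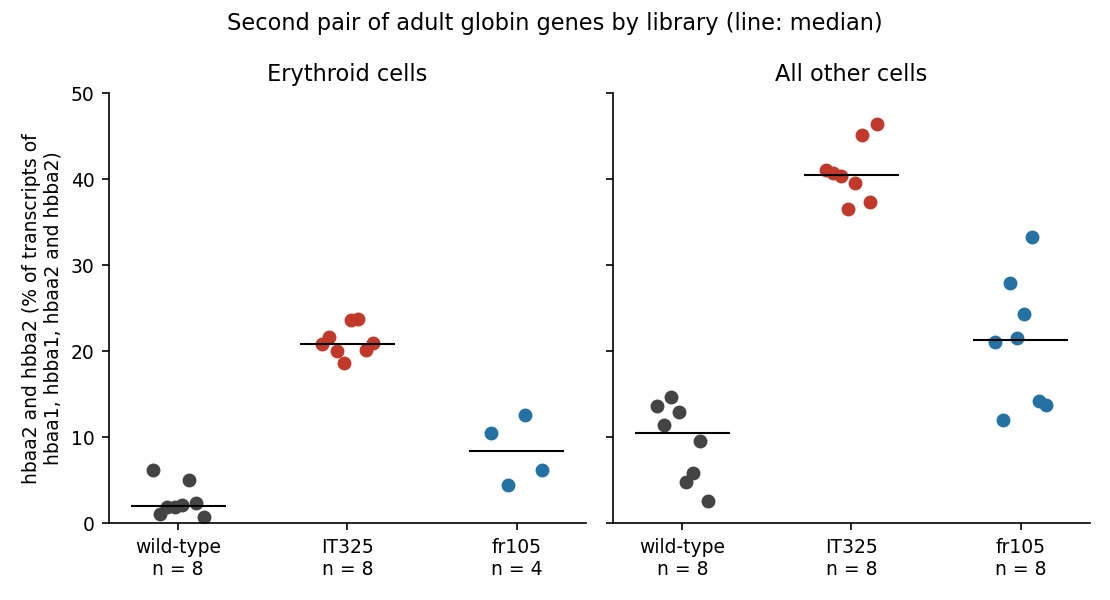
Each point is 1 library, by genotype (horizontal) and by the percentage of *hbaa2* and *hbba2* among the transcripts of the 4 adult globin genes (vertical), in erythroid cells on the left and in all other cells on the right, with the median as a line. In erythroid cells IT325 libraries lie between 18.7% and 23.8% and wild-type libraries at 6.198% or below.

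The gene groups of the red cell were counted in the same fit, in which 3.77% of all genes passed, and each count is to be read against that share. None of 11 tested haem synthesis genes passed (median log2 difference -0.15, against 0.02 for all genes), nor did any of 8 transcription factors (0.43), 7 genes of the red cell enzyme list (0.22) or 80 ribosomal protein genes (-0.12). The haem synthesis list of this fit includes *alas2*, the gene that chose the cells. Among the 10 membrane and skeleton genes 2 were higher. Beta adducin, *add2*, which caps actin at the spectrin junctions, stood at 1.05, 1.137, 1.61, 0.501 and 0.788 per 10000 in the wild-type libraries and between 2.45 and 11.4 in IT325 (median 4.65), a log2 difference of 2.41 (SE 0.46, edgeR adjusted p 0.0017) without overlap. The tropomodulin gene *tmod4* stood at 2.62, 1.137, 1.11, 2.51 and 0.788 in wild-type and between 2.44 and 7.50 in IT325 (1.71, SE 0.42, edgeR adjusted p 0.023), and the lowest IT325 library lay below the highest wild-type one. *slc4a1a* (0.01), *sptb* (0.01) and *epb41b* (-0.28) did not pass. Within libraries *add2* was also higher in high-haemoglobin cells (low minus high -1.61, edgeR adjusted p 0.026). The top haemoglobin range held 28 of the 72 IT325 and 5 of the 25 wild-type erythroid cells. What this mix adds to the *add2* difference was not tested. Of 16 tested cell division genes only *rrm2*, a subunit of ribonucleotide reductase, passed, at 0, 0, 0.124, 0.501 and 0.525 in wild-type and between 0.992 and 9.74 in IT325 (3.86, SE 0.76, edgeR adjusted p 0.0020), while the median of the list was -0.31 and *mki67* stood at -1.48 (edgeR adjusted p 0.056). Of 11 tested mitochondrial respiratory genes only MT-CO1 passed (0.86, SE 0.24, edgeR adjusted p 0.038), and all 11 had values above 0 (median 0.59).

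Outside the lists the smallest p of a gene higher in IT325 belonged to *si:ch211-114n24.6*, at 1.05, 1.71, 1.61, 3.01 and 2.101 per 10000 in wild-type and between 6.36 and 18.6 in IT325 (2.74, SE 0.37, edgeR adjusted p 2.7e-05). It was at 0 in the 7 fr105 cells. Of *rgcc*, *capn12* and DEDD2 no transcript was found in the 22 wild-type cells. *rgcc*, a regulator of the cell cycle, had 138 transcripts against 0, at least 14.5-fold higher, when the floor is 3 transcripts over the group. The calpain gene *capn12* had 73 against 0, at least 7.66-fold higher, and DEDD2 71 against 0, at least 7.45-fold higher. In IT325 they came from 22, 26 and 36 cells. Besides *blvrb*, the lower genes were *slc20a1a*, a phosphate transporter and the only kidney tubule marker tested in this fit, at 7.86, 1.71, 1.73, 4.01 and 2.63 in wild-type and between 0.314 and 1.62 in IT325 (-1.78, SE 0.47, edgeR adjusted p 0.032), *si:dkey-108k21.21* (-2.50), TCIM (ENSDARG00000076858, -1.18), API5 (-1.98) and the clathrin gene *cltca* (-1.25). These calls were less firm than that of *blvrb*, since *slc20a1a* passed in 12 of 24 alternatives, *si:dkey-108k21.21* in 16 of 23, TCIM in 9 of 26, API5 in 8 of 15 and *cltca* in 7 of 26. The mutated gene, *ikzf1*, was higher, with a median of 2.16 against 0.525 (1.84, SE 0.52, edgeR adjusted p 0.042), from 118 and 11 transcripts.

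**Figure D5:**
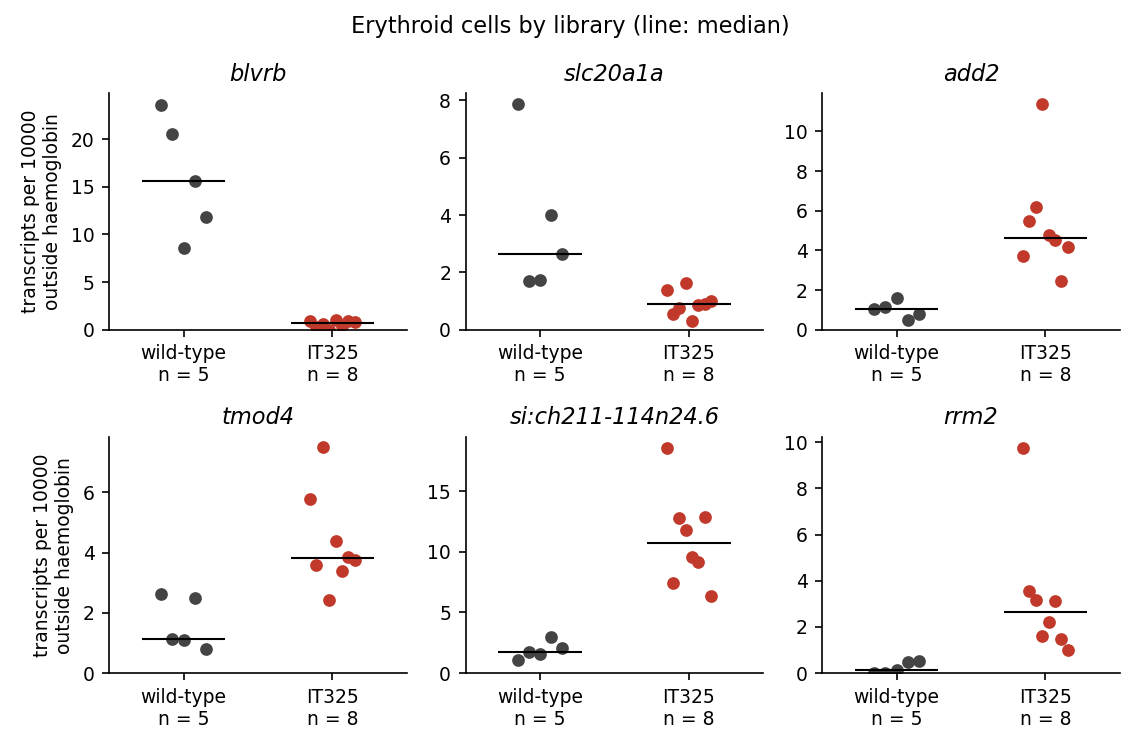
Each point is 1 library, wild-type (5 libraries) or IT325 (8 libraries), by the level of a gene in transcripts per 10000 outside haemoglobin (vertical, each panel from 0 to its own maximum), with the median as a line. In the panel of *blvrb* IT325 libraries lie at 1.02 or below and wild-type libraries between 8.56 and 23.6, and in that of *add2* IT325 libraries lie between 2.45 and 11.4.

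Neutrophil genes were higher in IT325 erythroid cells for 4 of 7 tested, against 3.17% of all genes, with *npsn*, an astacin metalloprotease, at a log2 difference of 4.29 (SE 0.66, edgeR adjusted p 0.00019), *cpa5* at 2.63, the myeloperoxidase gene *mpx* at 2.41 and lysozyme, *lyz*, at 2.18. The 5 IT325 cells with many neutrophil markers carried 66.5%, 63.0%, 61.6% and 72.7% of the IT325 transcripts of these genes. In the cells that were not erythroid, *npsn* was at medians of 43.1 in IT325 and 6.29 in wild-type libraries. Without the 5 cells *npsn* passed (2.99, SE 0.54, edgeR adjusted p 0.0012), and *cpa5* (1.52, adjusted p 0.22), *mpx* (1.38, adjusted p 0.33) and *lyz* (0.61, edgeR adjusted p 0.57) did not. That fit gave 26 higher and 6 lower genes in place of 32 and 6.

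The IT325 difference was also compared with that in the other cells of the same libraries. Of 5570 genes tested 7 (0.126%) differed more strongly upwards in erythroid cells and 0 downwards at an adjusted p under 0.05 (edgeR, library as a block), with 502 and 52 at an unadjusted p under 0.05. All differences of this kind were shifted, with a median of 0.53 on the log2 scale, while the test was against 0. A lower level in the other cells of IT325 raises such a difference as much as a higher level in erythroid cells does. The 7 were *icn* (3.94, SE 0.56, adjusted p 1.1e-08), *capn12* (8.09, from 73 against 0 transcripts in erythroid cells), *arhgef1b* (7.33, from 49 against 0), *plcg2* (3.75), *plecb* (4.57), *crip1* (2.45) and *fos* (2.88, edgeR adjusted p 0.039). The erythroid cells of wild-type held no transcript of *capn12* or *arhgef1b*, so these fitted values depend on the prior count and are no bound. From 73 and 49 transcripts in IT325, the erythroid levels were at least 7.66-fold and at least 5.14-fold higher, with a floor of 3 transcripts over the group. *icn* passed in all 18 alternatives, although a single IT325 cell held much of its IT325 transcripts, as given above. Other calls were less firm, since *arhgef1b* passed in 17 of 18, *crip1* in 12, *plcg2* in 11, *plecb* in 9 and *fos* in 4. *capn12* passed in the 16 that gave it an adjusted p, which the fits of thinned cells and DESeq2 did not. Without the 5 cells with many neutrophil markers 6 genes passed, and *fos* did not (2.65, edgeR adjusted p 0.13). The globin genes did not differ between the classes by this test (*hbaa2* 0.68, adjusted p 0.63, *hbba2* -0.50, edgeR adjusted p 0.74), nor did *add2* (0.98, edgeR adjusted p 0.75). DESeq2 called 10 genes, and 3 were called without the filter on low counts.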

How the data were processed

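WKM cells had been sorted by light scatter and sequenced by mCEL-Seq2, which reads the 3′ end of each transcript and counts molecules by UMIs (random tags). The authors aligned reads with BWA 0.6.2-r126 (after bcl2fastq 2.17.1.14, per the labels) in sense direction to gene models of Ensembl, discarded reads matching several loci, and turned UMI counts into transcripts with a correction for 4096 UMI sequences. The deposited values are therefore expected counts, with no cell filter. They are least precise for saturated genes, where *hbba1* reached 6055 and *hbaa1* 6509 transcripts in a cell. Summed transcripts were rounded and tested with edgeR 4.0.16 (R 4.3.3, quasi-likelihood test, filterByExpr with a minimum count of 5, haemoglobin genes outside library sizes, Benjamini-Hochberg adjustment), with DESeq2 1.42.0 as an alternative. Shares were compared with exact permutation tests over libraries (Python 3.11.15, scipy 1.17.1). Named were the genes of the lists, the 15 with the largest ratio of erythroid to other cells found in at least 20% of erythroid cells, and the 10 smallest p per direction and fit. Members and lists were chosen with earlier results of these data known. A well received 1 sorted cell, and doublets were not called. Replicate numbers did not pair libraries (r of same-numbered IT325 and wild-type libraries -0.08 to 0.07), and no library looked deposited more than once (lowest chi-square divided by its degrees of freedom 3.26). The gene tests were tested on simulated data. Coordinates were not used here.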

Additional observations from a re-analysis of the deposited data

Results flagged for a closer look

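Of 53 groups of libraries examined for a library that stands apart, 7 had one. The rule marks about 1 in 20 groups by chance only where values are normally distributed. Part of the groups were genes chosen by small p in these same libraries, so 7 of 53 is not read as an excess. In wild-type replicate 1 *hbaa2* stood at 316 per 10000 transcripts outside haemoglobin, against 8.68 to 86.2 in the other wild-type libraries, *hbba2* at 421 against 21.9 to 133.9, and *npsn* at 2.096 against 0.371 to 0.5683. In wild-type replicate 5 *icn* stood at 8.54 against 0.501 to 1.57. In IT325 replicate 12 *add2* stood at 11.4 against 2.45 to 6.19. In IT325 replicate 9 *rrm2* stood at 9.74 against 0.992 to 3.58, and *si:dkey-108k21.21* at 1.85 against 0 to 0.876.

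By the test of the difference itself, the IT325 difference lay higher in erythroid than in other cells of the same libraries for 7 genes. These were *icn* (3.94 on the log2 scale), *arhgef1b* (7.33), *capn12* (8.09), *plcg2* (3.75), *crip1* (2.45), *plecb* (4.57) and *fos* (2.88). The median over all genes was 0.53, and the test was against 0. Of 18 alternatives *fos* passed in 4, *plecb* in 9, *plcg2* in 11 and *crip1* in 12. Wild-type erythroid cells held 0 transcripts of *arhgef1b* and *capn12*, against 49 and 73 in IT325, so their fitted values depend on the prior count and are no bound. The erythroid levels were at least 5.14-fold and at least 7.66-fold higher in IT325, with a floor of 3 transcripts over the group. For *plecb* 1 IT325 cell held 51.7% of the IT325 transcripts, and for *plcg2* 1 held 46.6%. A single IT325 cell also held much of the IT325 transcripts of *icn*, as given above.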

How the results depend on the processing

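The higher erythroid share of IT325 passed in all alternatives but the replicate block, where 4 pairs gave 18.1 points (exact p = 0.125, the smallest possible), and ranged from 12.3 to 13.8 points when each library was left out. fr105 minus wild-type ranged from -5.43 to -4.15 without single libraries, and did not pass with *gata1a* (-3.03), *slc4a1a* (-8.43), P1 libraries (-0.035) or the replicate block (-4.74). fr105 minus IT325 ranged from -18.6 to -17.0 and was -18.1 in the replicate block. Median transcripts per erythroid cell turned to -1523 with at least 2 cells per library and to -1157 for IT325 P1 libraries against all wild-type (-382 to 1420 without single libraries). Median haemoglobin share turned to -5.29 in P1 and -12.1 in the replicate block (-2.15 to 3.27 without single libraries).

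Genes called between IT325 and wild-type numbered 38, and 89 with DESeq2, 86 without the filter, 17 with 1 cell per library, 4 in thinned cells, 1 in P1, 23 in P2, 9 for IT325 P1 and 11 with the replicate block (19 to 55 without single libraries, lowest without wild-type replicate 6, with 20 without wild-type replicate 8 and 23 without IT325 replicate 2). Low against high haemoglobin gave 31, and 50 between under 10% and at least 50%, 145 with DESeq2, 122 with its size factors, 16 in thinned cells and 52 without cells rich in neutrophil markers (19 to 56). The genotype effect in erythroid against other cells gave 7, 3 without the filter and 1 in thinned cells (3 to 11: 4 without wild-type replicate 1 or 8, 11 without wild-type replicate 5, 3 without IT325 replicate 1 or 4). The cause was not tested.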
